A study of Bos taurus with 32 samples.

Results

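MiR-21, listed on the array as bta-miR-21, was followed across the fat of steers on a Control or a High fat diet. Its values are those of the array's probe set for miRNAs named bta-miR-21 with or without the suffix -5p. It was 1 miRNA, with 20 of the 13440 miRNA spots of an array on which every bovine miRNA had 20. No miRNA with the suffixed name was present. Total RNA came from 16 cross bred Hereford and Aberdeen Angus steers. The Control diet was fed to 8 of them, and the High fat diet, which held more fat through added flaxseed, to the other 8. Each steer gave subcutaneous fat, taken as backfat, and visceral fat, taken around the kidney, so that 32 arrays formed 4 groups of 8. The steers were castrated males of a single type of cross, no genetic change was involved, and the same 16 steers stand behind both depots. The question was how the level of the miRNA differed between diets and between depots.

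A miRNA is a short RNA that guides a silencing complex to complementary sites in messenger RNAs, where it lowers protein output. MiR-21 is among the best known of them. It has its own primary transcript at the locus of VMP1, a gene of autophagy, and the RefSeq table for assembly ARS-UCD2.0 places the cattle gene MIR21 between VMP1 and TUBD1. Its known targets include PDCD4, which restrains translation, and SPRY1, which restrains growth factor signalling. It is known for its rise in tumours, in fibrosis and in activated immune cells. In adipose tissue it is carried by adipocytes, their precursors, fibroblasts and macrophages, and in cultured adipose stem cells it has been linked to adipocyte differentiation through the TGF-beta receptor TGFBR2.

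Each array was hybridized with 1 sample and a single dye, and the miRNA signal is an intensity with no scaling between arrays. The summed intensity of all miRNAs was 26021 to 79290 per Control array and 96888 to 366714 per High fat array, a ratio of medians of 5.42. The same ratio was 0.847 for the RNAs spiked in at labelling and 0.944 for the local background. The 8 arrays of a group shared a slide and each diet had its own scan session, so that neither slide and group nor session and diet can be told apart in any diet difference below, and the depots of a diet cannot be told apart from their slides. In bulk tissue, fewer cells that carry a miRNA and less of it per cell cannot be told apart either. The marker miR-126 of endothelium was detected on all 32 arrays, as were 4 of 6 adipocyte markers. Of the other two, miR-143 was detected on 5 of 16 Control and 16 High fat arrays and miR-193b on 0 Control and 4 High fat arrays, while miR-124a and miR-9 of neurons were detected on 0. The 8 arrays of a group limit the precision of every value.

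MiR-21 was detected on every array of the High fat diet and on fewer than 8 arrays in each Control group. The Feature Extraction call, which requires at least 1 probe with a total above 3 times its error, was positive for 4 of 8 Control samples of subcutaneous fat and for 3 of 8 of visceral fat, against 16 of 16 on the High fat diet. In all, 23 of 32 arrays were positive. Of the 295 miRNAs detected on any array, 23.1 percent shared this pattern, being detected on all 16 High fat arrays and on fewer than 16 Control arrays. The other arm of the same hairpin, bta-miR-21*, was detected on 0 of 32 arrays.

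On the Control diet, the intensity in subcutaneous fat was 9.35 in steer 209, 2.62 in steer 108, 2.32 in steer 307 and 2.31 in steer 308. Steers 111, 211, 405 and 410 were not detected there. In visceral fat of the same diet it was 6.04 in steer 410, 3.65 in steer 211 and 2.71 in steer 405, and the other 5 steers were not detected. Steer 209 stood well above the rest of its group in backfat and was not detected in visceral fat. The steers detected in one depot were not those detected in the other, since none of the 8 was detected in both.

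On the High fat diet, the intensity in subcutaneous fat ran from 160.3 in steer 109 through a median of 213 to 450.4 in steer 202. In visceral fat it ran from 54.2 in steer 303 through a median of 99.96 to 246 in steer 302. The High fat and Control arrays did not overlap in either depot. On this unscaled measure the same held for 67.1 percent of the 240 miRNAs detected on at least 8 arrays in subcutaneous fat and for 42.9 percent in visceral fat. The dimmest High fat array exceeded the brightest Control array 17.1-fold in subcutaneous fat, 8.96-fold in visceral fat and 5.79-fold over both depots.

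**Figure D1:**
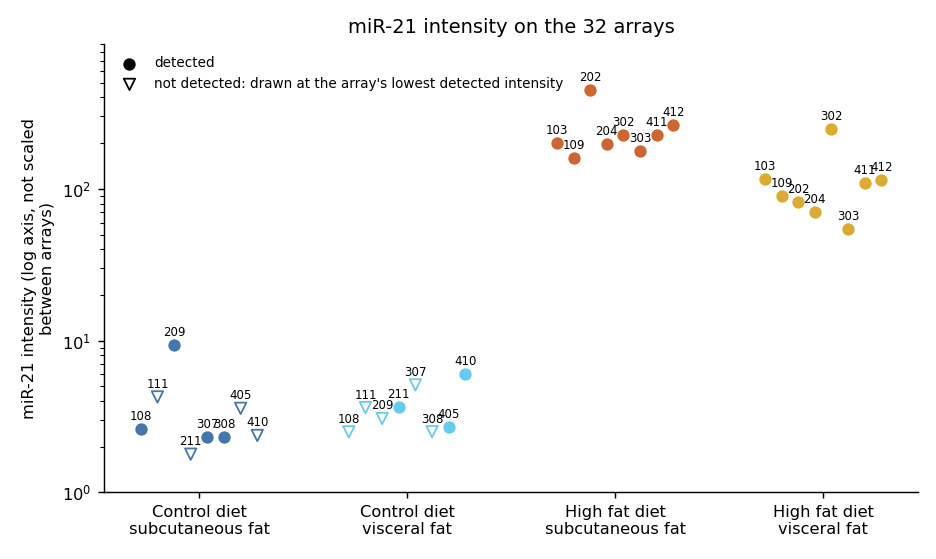
MiR-21 intensity on each array, on a log axis and without scaling between arrays, for the 4 groups of 8 steers (numbers are steers). Filled points were detected and lie at 2.31 to 9.35 on the Control diet and at 54.2 to 450.4 on the High fat diet; open triangles stand at the lowest detected intensity of an array on which miR-21 was not detected.

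The total of miR-21 is built from 4 probes with 5 spots each, numbered here from the dimmest to the brightest. On the High fat arrays the 4 probes kept a steady order. Relative to probe 4, probe 3 gave 50.5 to 56.2 percent, probe 2 gave 21.4 to 27.6 percent and probe 1 gave 4.79 to 6.63 percent. On 14 High fat arrays the total was the sum of all 4 probes, and on the other two it held 3. Of the 20 spots of an array, 15 to 20 were well above background on the High fat diet and 0 to 7 on the Control diet.

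On the 7 Control arrays with a detection call, the total rested on 1 probe in 5 cases and on a pair of probes in 2. On the 9 Control arrays without a call, the mean spot signal of probe 4 lay within 3 SD of the 410 to 433 negative control spots of the same array, and on the 7 with a call it lay above. That SD is the spread of single spots, which is wider than the spread of a mean over the spots of a probe. A mean within it can therefore still lie above background. In Control visceral fat of steer 307, which had no call, the mean was 5.33, against 0.101 ± 1.92 for the negative controls (SD, 421 spots). The call also weighs signal against error, so the comparison is no independent support for it. MiR-21 was thus not called on most Control arrays, which does not show its absence.

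**Figure D2:**
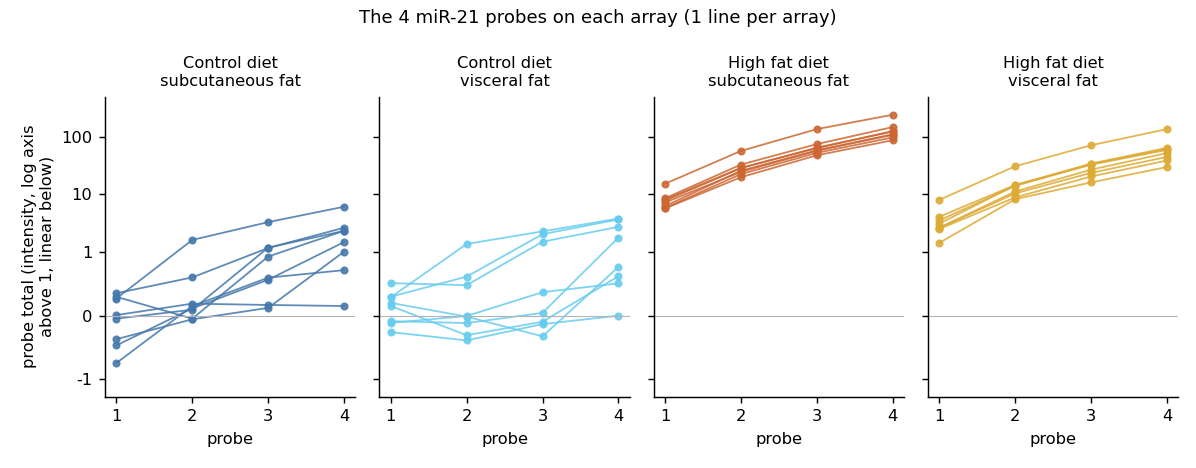
Background-subtracted total of each of the 4 miR-21 probes (horizontal axis) on each array (1 line), on an axis that is logarithmic above 1 and linear below. On the High fat arrays the lines run parallel, with probe 3 at 50.5 to 56.2 percent of probe 4, while on the Control arrays probes 1 and 2 lie around 0.

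The detection filter leaves dim probes out of the Control totals, and so the 4 probe totals were also added without it. The mean sum was 3.32 ± 3.56 in Control and 238 ± 91.6 in High fat subcutaneous fat (SD, n = 8 each), a ratio of 71.5. In visceral fat it was 2.75 ± 3.23 and 111 ± 58.9 (SD, n = 8 each), a ratio of 40.2. The Control sums ran from 0.513 to 11.2 in subcutaneous and from -0.780 to 7.69 in visceral fat, with an SD above the mean. Both ratios thus rest on a denominator near background and are imprecise. These sums are not scaled, and on unscaled intensities 85.8 percent of the tested miRNAs were higher in High fat than in Control subcutaneous fat, and 68.8 percent in visceral fat.

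To set the level against the other miRNAs of the array, each intensity was divided by the 75th percentile over the 91 miRNAs detected on all 32 arrays and put on the log2 scale, with values under -7.22 raised to that floor. The scaled level averaged -6.84 ± 0.541 in Control and -3.01 ± 0.632 in High fat subcutaneous fat (SD, n = 8 each). In visceral fat it averaged -6.81 ± 0.622 and -3.32 ± 0.401 (SD, n = 8 each). High fat levels ran from -3.76 to -1.56, and the highest Control level was -5.64. All 16 High fat arrays therefore lay above all 16 Control arrays, as they did for 25.3 percent of the 233 miRNAs tested. Within a depot, 33.0 percent of the miRNAs in subcutaneous fat and 28.3 percent in visceral fat had all 8 High fat arrays above all 8 Control arrays.

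MiR-21 was higher on the High fat diet in both depots. The log2 difference of the scaled level was 3.83 in subcutaneous fat (standard error 0.272, 95% confidence interval 3.27 to 4.39, limma adjusted p = 1.02e-13). In visceral fat it was 3.49 (standard error 0.272, limma adjusted p = 1.03e-12). Because Control arrays without a call sit at the floor, the sizes depend on it. With those arrays at their own lowest detected intensity, the means differed 9.70-fold in subcutaneous and 5.37-fold in visceral fat. On the log2 scale these are 3.28 and 2.42, and neither is a lower bound. In subcutaneous fat the log2 difference was smaller with the floor at the highest group median (2.81), the brightest probe only (3.04) and the mean over the probes (2.92). In visceral fat it was smaller with the mean over the probes (2.34), but not with that floor (2.50) or the brightest probe only (2.62).

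Many other miRNAs were called as well. At an adjusted p under 0.05, 76.0 percent of the 233 miRNAs differed between diets in subcutaneous fat, with 41.6 percent higher and 34.3 percent lower in High fat steers. In visceral fat 71.7 percent differed, 42.1 percent being higher and 29.6 percent lower. By size, the miR-21 difference was 11th from the top in subcutaneous fat and 15th in visceral fat, where the median over all tested miRNAs was 0.10 and 0.17. The split of calls moved with the scaling. In subcutaneous fat 97 miRNAs were higher and 80 lower, against 206 and 4 with no scaling, 216 and 1 with the spike-ins, 169 and 21 with bta-miR-181a (the qRT-PCR reference of the study) as the standard, 47 and 97 with the deposited values, and 26 and 158 with the percentile taken over every miRNA of the array, detected or not. In visceral fat the main split was 98 and 69, against 165 and 7, 181 and 1, 150 and 17, 57 and 83, and 21 and 144.

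**Figure D3:**
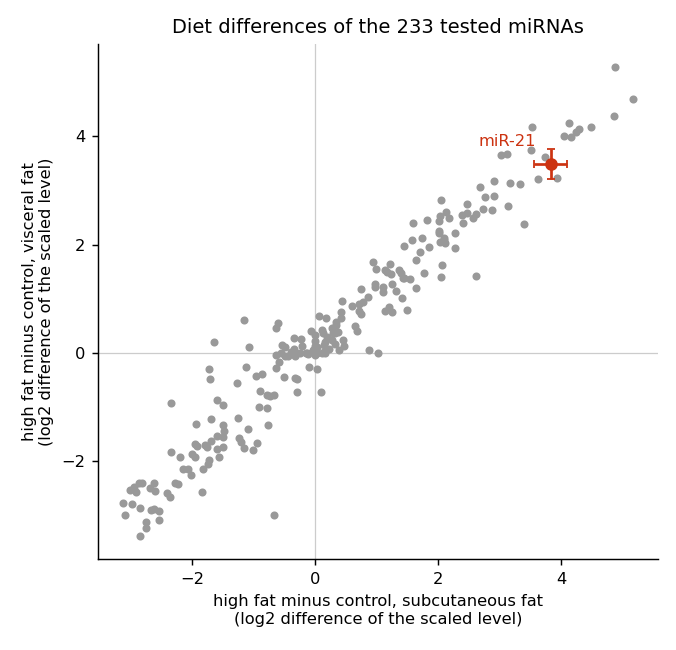
Log2 difference of the scaled level, High fat minus Control diet, in subcutaneous fat (horizontal) and visceral fat (vertical) for the 233 tested miRNAs, with miR-21 in red (bars are standard errors). MiR-21 lies at 3.83 and 3.49, 11th and 15th from the top.

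Under the main scaling, the 91 miRNAs detected on all arrays had a median diet difference of -0.91 for subcutaneous and -0.80 for visceral fat, and miR-21 exceeded it by 4.74 and 4.28. Over 8 scalings, from no scaling to quantile normalization, that median ran from -5.05 to 2.26 in subcutaneous fat, while miR-21 exceeded it by 4.02 to 6.60. In visceral fat the median ran from -5.24 to 2.08 and the excess from 3.35 to 6.36. Most of these scalings shift an array by a constant, which cancels in the excess apart from the floor. How little the excess moved over them is therefore no independent support. With the floor at the highest group median the excess was 3.72 and 3.30, and with the normexp background correction it was 0.51 and 0.34. Under all 8 scalings the miR-21 difference was positive, although with the percentile over every miRNA it did not pass the threshold, at 1.55 in subcutaneous fat (limma adjusted p = 0.115) and 1.11 in visceral fat (limma adjusted p = 0.282). That percentile fell on an undetected miRNA on 15 of the 16 Control arrays. With the normexp background correction and an offset of 50 the scaled difference turned negative, at -0.77 (limma adjusted p = 0.000181) and -0.87 (limma adjusted p = 3.55e-05). Before the scaling step of that setting, the mean log2 value of miR-21 was 5.90 in Control and 7.57 in High fat subcutaneous fat, and 5.90 and 6.95 in visceral fat.

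All 4 probes were higher on the High fat diet when fitted singly among 489 probes. In subcutaneous fat the log2 differences of probes 1 to 4 were 1.60, 3.11, 3.46 and 3.43. In visceral fat they were 0.71, 2.42, 3.07 and 3.06, with limma adjusted p = 0.0153 for probe 1. Probe 1, the dimmest, lay at the minimum intensity of 1 on 7 of 8 arrays of each Control group, so its differences are compressed. Probe 2 lay there on 6 Control subcutaneous and 5 Control visceral arrays, probe 3 on 2 and 4, and probe 4 on 1 of each. Their differences are compressed to that extent as well.

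The rank of miR-21 among all miRNAs of an array, counted from the brightest, needs no scaling. On the High fat diet it ran from 56 to 89 in subcutaneous and from 68 to 96 in visceral fat, with means of 78.6 ± 10.4 and 86.6 ± 10.5 (SD, n = 8 each). On the Control diet it ran from 119 to 161 and from 116 to 159, with means of 146 ± 16.0 and 135 ± 14.6 (SD, n = 8 each). The ranks of the diets did not overlap, and for how many other miRNAs this held was not counted. On the scaled level, all 16 High fat arrays lay above all 16 Control arrays for 25.3 percent of the 233 miRNAs tested. On the 9 Control arrays without a call, however, the rank is the number of detected miRNAs plus 1, so that the size of the rank difference depends on how many miRNAs an array detected and is not tested. Counted among the 91 miRNAs detected on all arrays, where an array without a call comes after the last of them, the mean rank number fell by 31.6 in subcutaneous fat from Control to High fat steers (two-sided exact permutation p = 0.0001554) and fell by 29.1 in visceral fat (two-sided exact permutation p = 0.0001554). This p is the smallest that 8 arrays against 8 can give.

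By share of the summed signal, miR-21 was a minor miRNA in every group. Its share on the High fat diet was 0.0613 to 0.250 percent in subcutaneous fat (median 0.0866) and 0.0341 to 0.118 percent in visceral fat (median 0.0600). On the Control diet it was at most 0.0118 percent in subcutaneous and 0.0125 percent in visceral fat, arrays without a call carrying the intensity of 0.1 that the software lists for them. The lowest High fat share exceeded the highest Control share 2.73-fold, and how many other miRNAs had shares that did not overlap was not counted. For the scaled level, the 16 High fat arrays lay above the 16 Control arrays for 25.3 percent of the 233 miRNAs tested. The lack of overlap in share is therefore not shown to be particular to miR-21. The diets differed by 0.0997 percentage points in subcutaneous fat (two-sided exact permutation p = 0.0001554) and by 0.0639 in visceral fat (two-sided exact permutation p = 0.0001554). Both p are the smallest that 8 arrays against 8 can give, and follow from the lack of overlap.

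The share is relative to what the brightest miRNAs carry, and these differed between diets. Bta-miR-2478 held a median of 34.3 percent of the signal in High fat subcutaneous fat and 1.40 percent in Control. For bta-let-7b the medians were 5.21 and 26.0 percent, and for bta-let-7a 6.86 and 15.5 percent. Without these 3 miRNAs in the sum, the diet difference of the miR-21 share was 0.185 percentage points in subcutaneous and 0.146 in visceral fat.

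**Figure D4:**
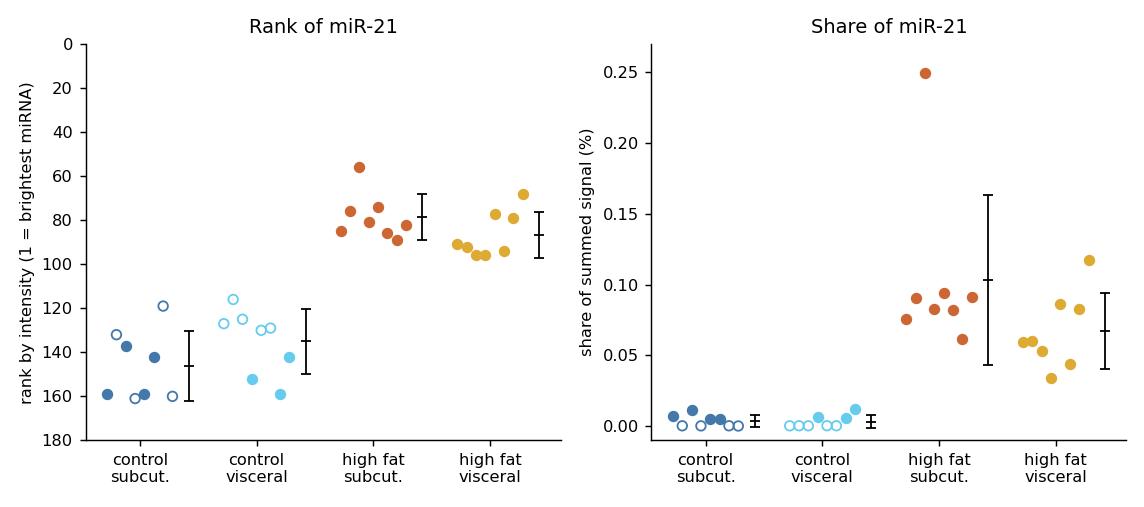
Rank of miR-21 by intensity (left, 1 is the brightest miRNA, axis inverted) and its share of the summed signal in percent (right) on each array, with the mean and SD of each group of 8; open points are arrays without a detection call. High fat ranks lie between 56 and 96 and Control ranks between 116 and 161, and steer 202 alone reaches a share of 0.250 percent.

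No difference between depots passed the test for miR-21. On the High fat diet, visceral minus subcutaneous fat was -0.31 on the log2 scale (95% confidence interval -0.87 to 0.25, limma adjusted p = 0.471), where 26.2 percent of the 233 miRNAs were called. The share differed by -0.0362 percentage points (two-sided exact permutation p = 0.0923) and the rank by 8.00 places (two-sided exact permutation p = 0.156). On the Control diet the level differed by 0.035 (95% confidence interval -0.52 to 0.59, limma adjusted p = 1), a value with no meaning as a size because 9 of the 16 arrays sat at the floor, and 18.9 percent of the miRNAs were called. The depot difference on the High fat diet minus that on the Control diet was -0.34 (limma adjusted p = 0.831), against 1.72 percent of the miRNAs called in that comparison.

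Among the 8 High fat steers, 5 had the lower miR-21 level in visceral fat. Steer 202 had the widest gap, at -1.56 in subcutaneous and -3.68 in visceral fat. The other 7 gaps, visceral minus subcutaneous, ran from -0.57 in steer 204 to 0.56 in steers 411 and 412. Without the subcutaneous sample of steer 202, the depot difference was -0.10. The unscaled intensity was lower in visceral fat in 7 of 8 steers, and its log2 difference was -1.18 (limma adjusted p = 0.000797). The median of the miRNAs detected on all arrays moved by -0.72 in the same comparison. With the spike-ins as the standard it was -0.83 (limma adjusted p = 0.0265), beside a median of -0.37.

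No relation between the depots of a steer passed the test. Over the 8 High fat steers the levels of the depots had a Pearson r of -0.34 (exact permutation p = 0.346) and a Spearman rho of -0.24 (exact permutation p = 0.582). Without the 2 steers farthest from the median in subcutaneous fat, r was 0.22. On the Control diet r was -0.54 (exact permutation p = 0.190) and rho was -0.70 (exact permutation p = 0.110), with floor values in both depots. Adjusted over the 6 relations computed, the p for r were 0.346 and 0.286.

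The other 4 relations set the level against the log2 summed signal of the array, within each group of 8. In Control visceral fat r was 0.89 (exact permutation p = 0.00893, adjusted 0.0536) and rho was 0.85 (exact permutation p = 0.0179, adjusted 0.107). In Control subcutaneous fat r was 0.73 (exact permutation p = 0.0446, adjusted 0.134) and rho was 0.57 (exact permutation p = 0.148), and r fell to 0.016 without the 2 arrays farthest from the median. For High fat steers r was -0.66 (exact permutation p = 0.0786) in the subcutaneous depot and -0.44 (exact permutation p = 0.282) in the visceral depot, with rho of -0.60 (exact permutation p = 0.132) and -0.38 (exact permutation p = 0.360). Without the 2 farthest arrays r was 0.91 in Control visceral, -0.79 in High fat subcutaneous and -0.32 in High fat visceral fat. None passed after adjustment. The Control arrays on which miR-21 was seen thus included the brightest of their slides, such as that of steer 209 in subcutaneous fat and that of steer 211 in visceral fat, and the part of array brightness in the detection calls was not tested.

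**Figure D5:**
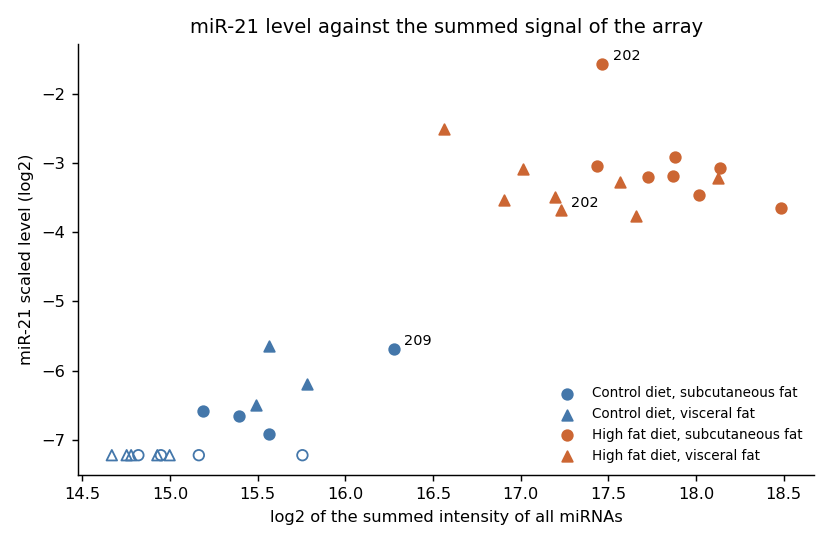
Scaled log2 level of miR-21 (vertical) against the log2 summed intensity of all miRNAs (horizontal) on each of the 32 arrays; open symbols lie at the floor of -7.22. The High fat arrays are brighter and lie between -3.76 and -1.56, and the Control arrays lie at or below -5.64.

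Ordered by the group mean of the scaled level, miR-21 was 164th of 233 in Control subcutaneous, 160th in Control visceral, 78th in High fat subcutaneous and 85th in High fat visceral fat. In the order of the 4 group means, from High fat subcutaneous through High fat visceral and Control visceral to Control subcutaneous fat, the neighbours that shared a diet did not differ beyond their spread, and the step between diets did. Its neighbours in rank, between bta-miR-199c at -2.99 ± 0.122 and bta-miR-16b at -3.03 ± 0.0758 in High fat subcutaneous fat (SD, n = 8 each), had less spread than the 0.632 of miR-21, which was 0.254 without steer 202. In High fat visceral fat it lay between bta-miR-204 at -3.25 ± 0.325 and bta-miR-127 at -3.32 ± 0.391 (SD, n = 8 each). In Control fat it lay between bta-miR-382 and bta-miR-222 in the subcutaneous and between bta-miR-451 and bta-miR-1 in the visceral depot, all 4 detected on at most 3 of 8 arrays. Among the 210 miRNAs detected on all 8 High fat subcutaneous arrays, miR-21 had the 14th highest SD, against a median SD of 0.233. This place rests on steer 202, since without that sample miR-21 was 87th, at 0.254 against a median of 0.219.

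The miRNAs that varied most like miR-21 were sought among those detected on all 32 arrays, by Pearson r of the deviations from the group means. They were bta-miR-15b (0.63), bta-miR-15a (0.63), bta-miR-27b (0.60), bta-miR-29a (0.58) and bta-let-7i (0.54). These r describe 32 arrays that share slides, and miR-21 sits at the floor on 9 of them. Over the 16 High fat arrays alone the r were 0.47, 0.40, 0.37, -0.019 and 0.53 in the same order. They did not share its diet difference in size, since in subcutaneous fat bta-miR-15a rose by 2.57, bta-miR-27b by 1.11 and bta-miR-29a by 1.55 with the High fat diet, while bta-miR-15b fell by 1.26 and bta-let-7i differed by 0.03.

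MiR-21 was set beside miRNAs linked to the processes for which it is known. In fibrosis, the miR-29 family represses collagen genes and miR-34a, miR-199 and miR-214 are raised in scarring tissue. Of 15 such miRNAs on the array, 11 were tested, and in subcutaneous fat the High fat steers had 8 higher and 1 lower, with a median difference of 1.71. In visceral fat 8 were higher and 1 lower, with a median of 1.86. Bta-miR-132, among the 11 tested, was detected on 0 Control arrays and was called in neither depot. Bta-miR-199a-3p was higher by 1.45 and bta-miR-29a by 1.55 in subcutaneous fat, bta-miR-214 fell by 1.79, and the difference of bta-miR-145, a smooth muscle miRNA, was -0.12. The members that moved thus include both repressors of collagen and miRNAs raised in scars.

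Of 14 miRNAs linked to inflammation, 10 were tested. Among these, bta-miR-142, bta-miR-146b, bta-miR-132 and bta-miR-31 were detected on 0 Control arrays. They met the filter of at least 8 arrays only through the High fat diet. With every Control value at the floor, they could be equal or higher on that diet but not lower. In subcutaneous fat 1 was higher and 2 were lower, with a median of 0.05, and in visceral fat 3 were higher and 2 lower, with a median of 0.03. The higher ones included bta-miR-142 in both depots and bta-miR-146b in visceral fat, so that part of the count was fixed in direction beforehand. Bta-miR-142, a blood cell miRNA, was detected on all 16 High fat arrays and on 0 Control arrays. How many of all miRNAs had this pattern was not counted, while 23.1 percent were on all 16 High fat and fewer than 16 Control arrays. Bta-miR-155, induced in activated immune cells, fell by 1.24 in subcutaneous and by 1.57 in visceral fat. For bta-miR-223 of myeloid cells the differences were 0.10 and -0.72, the latter with limma adjusted p = 0.0334. Bta-miR-125b differed by -0.07 in subcutaneous fat and rose by 0.40 in visceral fat. Of 26 miRNAs linked to adipocyte differentiation, 19 were tested, of which 16 were higher and 2 lower in subcutaneous fat (median 1.11) and 16 higher and 1 lower in visceral fat (median 1.27). Bta-miR-30e-5p, counted as higher in both depots, and bta-miR-130b, in subcutaneous fat only, were likewise detected on 0 Control arrays. In this count miR-27a, miR-193a and miR-365 stand as bta-miR-27a-5p, bta-miR-193a and bta-miR-365-5p, none of them tested. Other arms that were detected, such as bta-miR-27a-3p, are not counted. Of these, bta-miR-365-3p differed by -0.0054 in subcutaneous and 0.22 in visceral fat, and bta-miR-193a-5p by -2.23 and -2.43. Bta-miR-27b rose by 1.11, bta-miR-26a by 0.86 and bta-miR-26b by 1.78 in subcutaneous fat, and bta-miR-378 fell by 0.64. These shares stand beside the 41.6 and 42.1 percent of all tested miRNAs that were higher and the 34.3 and 29.6 percent that were lower.

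Markers of other cell types moved with diet as well. The endothelial miR-126 rose by 2.11 in subcutaneous and by 2.03 in visceral fat with the High fat diet. Its scaled intensity was 0.578 to 2.42 in Control and 3.45 to 7.96 in High fat steers. Of 4 leukocyte markers 3 were tested, with 1 higher and 1 lower in subcutaneous fat (median 0.10) and 1 higher and 2 lower in visceral fat (median -0.72), beside the 41.6 and 42.1 percent higher and 34.3 and 29.6 percent lower among all tested miRNAs. Their summed scaled intensity was 0.164 to 0.455 in Control and 0.223 to 0.992 in High fat subcutaneous fat. The higher leukocyte marker was bta-miR-142 in both depots, which was detected on 0 Control arrays. Of 4 skeletal muscle markers 3 were tested and 1 was higher in each depot. Of 3 red blood cell markers 2 were tested, and 1 was higher and 1 lower in each depot. Of 6 adipocyte markers 5 were tested, with 3 higher and 1 lower in subcutaneous fat and 4 higher and 0 lower in visceral fat. In subcutaneous fat miR-143 rose by 2.73, miR-107 by 1.25 and miR-103 by 0.72. There miR-378 fell by 0.64, and miR-204 differed by 0.18 without passing the threshold. The summed scaled intensity of the adipocyte markers was 1.15 to 1.92 in Control and 1.25 to 1.74 in High fat subcutaneous fat, groups that overlap. The kidney miRNA miR-194 was detected on all 16 High fat arrays and on 0 Control arrays, in both depots. The other kidney marker, miR-192, was detected on 7 High fat arrays of each depot and on 0 Control arrays, and was not tested. Detection on all 16 High fat and fewer than 16 Control arrays held for 23.1 percent of the miRNAs detected on any array. The liver miRNA miR-122 was not among those tested. Their part in the miR-21 difference was not tested.

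The deposited table of log2 values gave the same direction. In it the High fat values of miR-21 were 2.35 to 4.29 and the highest Control value was 1.87. The table shifts each array by a constant, which was 0 for 14 of the 16 Control samples and 2.67 to 5.05 for the High fat samples. Among Control arrays it therefore changed the order. Steer 209 in subcutaneous fat, with an intensity of 9.35, is listed at 0.76, and steer 108, with 2.62, at 1.39. The level differences from this table were 2.63 in subcutaneous and 2.42 in visceral fat.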

How the data were processed

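The authors hybridized 100 ng of total RNA per sample, extracted with TRIZOL, to 1-colour Agilent miRNA arrays. Per the file headers, the deposited intensities came from Feature Extraction 10.7.3.1. They were background subtracted and summed over the probes of a miRNA. That a probe enters when its total exceeds 3 times its error was inferred from the values. This rule reproduced 5901 of 5901 detected totals within 0.1 percent. An undetected miRNA is listed at 0.1. The authors also deposited a table of log2 values, made in GeneSpring with a 75th percentile shift. Features of that table were matched to miRNAs by value, and 244 of 244 matched.

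Here each intensity was scaled to the 75th percentile of the 91 miRNAs detected on every array, floored and log2 transformed. A set of 233 miRNAs (detected on at least 8 arrays and above the floor on some) were fitted with limma 3.58.1 in R 4.3.3, with the 4 groups in 1 fit, two-sided, and with Benjamini-Hochberg adjusted p under 0.05. Shares and ranks were compared by exact permutation with scipy 1.17.1 under Python 3.11.15. The limma step was tested on simulated data with normal spread and known differences. Those data had no floor, so the test does not cover miRNAs with values at the floor, such as miR-21 on the Control diet. Samples were grouped by their labels, steers being the replicates. Same-numbered samples came from the same steer, so depots were also compared with the steer as a fixed term in the fit. Diets and the interaction were also fitted with the steer as a replicate block (correlation of -0.052). MiR-21 and the lists were chosen with earlier results of these data known. Named miRNAs were the other arm, the 3 brightest, the 5 most alike, the neighbours in level, bta-miR-181a and the 4 highest of each list. Sharing of the seed, and mature sequences, were not analysed here.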

Additional observations from a re-analysis of the deposited data

Results flagged for a closer look

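Of 16 combinations of a group and a measure of miR-21, 7 had a highest or lowest array far from the other 7 by Dixon's test at the 95% level, where chance marks about 1 in 20. They come from 3 samples.

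The High fat subcutaneous sample of steer 202 accounts for 4 of them. Its intensity was 450.4, or 1.71 times the next highest, its scaled log2 level was -1.56, its share was 0.250 percent, or 2.66 times the next highest, and its rank was 56. The summed signal of this array was 7th of 8 in its group. Among the 210 miRNAs detected on all 8 arrays of the group, 7 stood apart upward on this array by the same test, and 5 on the array of steer 302. The 7 were miR-21, bta-miR-133b, bta-miR-133a, bta-miR-1434, bta-miR-130b, bta-miR-15b and bta-miR-328. Bta-miR-1, bta-miR-223 and bta-miR-146b were not among them. By distance above the median of the other 7 arrays, miR-21 was 6th, at 1.63 on the log2 scale. Ahead of it were bta-miR-133b (2.80), bta-miR-1 (2.65), bta-miR-223 (2.50), bta-miR-133a (1.86) and bta-miR-146b (1.65), named after their values were seen. The first, the second and the fourth of these are skeletal muscle miRNAs and bta-miR-223 is a myeloid one. The summed leukocyte markers reached 0.992 and the summed muscle markers 0.228 as the highest values of this group, where the medians were 0.289 and 0.0366. Over the 16 High fat arrays bta-miR-223 had an r of 0.81 with miR-21 in the deviations from the group means, and over all arrays an r of 0.50 that became 0.27 without this sample. The r of 0.81 was not computed without it. For bta-miR-155, the other leukocyte marker detected on all 32 arrays, r was 0.015 over the 16 High fat arrays. The part of the muscle and leukocyte miRNAs in the miR-21 level of this sample was not tested. The visceral sample of the same steer had a level of -3.68.

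The Control subcutaneous sample of steer 209 had an intensity of 9.35 and a scaled log2 level of -5.68. It was the brightest array of its group by summed signal. The High fat visceral sample of steer 302 had an intensity of 246, or 2.12 times the next highest, on the array with the highest summed signal of its group, and its scaled level of -3.22 did not stand apart.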

How the results depend on the processing

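The detection count was 22 to 23 arrays under the alternatives. Of 21 alternatives other than leaving out a steer, 19 kept the called diet difference in each depot. Exceptions were the percentile over every miRNA of the array, at 1.55 (limma adjusted p = 0.115) in subcutaneous and 1.11 (limma adjusted p = 0.282) in visceral fat, and normexp, at -0.77 and -0.87, where the offset enters the value of miR-21 and of the percentile unequally. Adjusted p ran up to 0.282 over these alternatives. The filter to miRNAs detected on all 32 arrays leaves miR-21 out, so it gave no level. Leaving out any steer kept both diet calls, at 3.62 to 3.997 and 3.37 to 3.65.

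The High fat depot difference passed the threshold with no scaling (-1.18, limma adjusted p = 0.000797) and the spike-ins (-0.83, limma adjusted p = 0.0265) and was 0.13 with normexp. Relative to the median of the 91 miRNAs, where a shift of an array by a constant cancels, it was -0.47 to -0.44 over 8 scalings. Leaving out a steer gave -0.43 to -0.051, the latter without steer 202. The Control depot difference was -0.013 with no scaling, -0.23 with quantile normalization, -0.11 with bta-miR-181a, -0.069 with the deposited values and -0.19 to 0.26 without a steer. The interaction ran from -0.57 to -0.085 without a steer.

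The share difference between Control depots was 8.11e-05 without the 3 brightest miRNAs and -0.00226 to 0.00114 without a steer. The High fat one was -0.0451 to -0.0133, and without steer 412 it passed at -0.0451 (exact permutation p = 0.0216). The Control rank difference was 0.125 among miRNAs detected on all arrays, 26.1 with probe intensities and -18.4 to -8.14 without a steer, reaching exact permutation p = 0.0192 without steer 405 at -18.4, although 9 of the 16 Control ranks are set by the number of detected miRNAs. The High fat one was 3.43 to 11.1, passing without steer 412 at 11.1 (exact permutation p = 0.0478). The High fat correlation of depots was 0.086 with no scaling and 0.22 without the 2 farthest steers. The cause of these changes was not tested.

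With the steer as a fixed term, the depot differences stayed at 0.035 (limma adjusted p = 1) and -0.31 (limma adjusted p = 0.574), and taking the steer into account changed no other miR-21 call. Calls among all miRNAs were 61 between High fat depots and 9 to 183 under the alternatives, 44 and 4 to 58 between Control depots, and 4 and 1 to 27 for the interaction. Summing the 4 probes without the filter, taking the brightest probe only, and leaving out the sample of steer 202 or 302 were chosen after seeing the data. The diet differences were then 3.51, 3.04, 3.62 and 3.83 for subcutaneous fat, against 3.15, 2.62, 3.49 and 3.47 for visceral fat. Signal over background limits the Control values.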
